A study of Mus musculus with 12 samples.

Results

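Of 117835 merged open-chromatin regions counted in macrophages sorted from mouse brain tumours, 2305 (1.96%) had been called as peaks in both groups of microglia and in neither group of monocyte-derived macrophages. Membership was read from the region names, which record the groups whose peak calls were merged: a lipid-laden microglia call and a non-lipid-laden microglia call were both required, and any monocyte-derived macrophage call excluded the region. The regions were thus chosen by the measured peak calls of these libraries, and levels in microglia against monocyte-derived macrophages are given below as a description with no test.

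ATAC-seq, in which the Tn5 transposase inserts adapters into accessible DNA, was run on nuclei of FACS-sorted cells in 12 libraries, 3 in each of 4 groups: lipid-laden microglia (LL-MG), microglia without the lipid-laden label (MG), lipid-laden monocyte-derived macrophages (LL-MDM) and monocyte-derived macrophages without that label (MDM). All 4 groups came from brain tumours of the genotype Ink4a/Arf knockout with PDGFB, a model in which PDGFB expression was enforced in Nestin-positive progenitor cells, so no group came from normal brain. The sources used here give neither the age of the animals nor the gates that separated lipid-laden cells. For 8 of the 12 samples the title and the library name place the sample in different groups; the groups used here follow the library names, by which the columns of counts are headed, and results with the groups of the titles are given with the other alternatives. The titles carry 3 different animal or sample numbers, but the same conflict keeps them from assigning libraries to animals, so p-values reflect only how far libraries of a group differed, which may be technical. That spread was estimated per region over all 4 groups together.

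Microglia are resident macrophages of the brain that settle during embryonic development, whereas monocyte-derived macrophages arrive from the blood, for example into a growing tumour. The identity of microglia depends on signals of the brain such as TGF-beta and on transcription factors that include Sall1, Smad3 and the macrophage lineage factor PU.1, and it is read from genes such as P2ry12 and Cx3cr1. Accessible regions away from gene starts often carry more of the difference between macrophage types than the gene starts do.

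The regions lay mostly away from gene starts, and 4 stretches at which a region reached a start are shown as examples of the sequence involved. They are the upstream parts of promoter windows (RefSeq, GRCm38.p6), trimmed to the bases that a region covered, for the 4 genes with the highest microglia level among those whose stretch lay outside every gene span. Adamts1 encodes a secreted metalloproteinase, Wwtr1 the transcriptional coactivator TAZ, Slc16a9 a member of the monocarboxylate transporter family and Prkcz an atypical protein kinase C. The stretches lie at chr16:85803114-85803296 on the minus strand (Adamts1), chr3:57575911-57576032 on the minus strand (Wwtr1), chr10:70245026-70245275 on the plus strand (Slc16a9) and chr4:155361429-155361671 on the minus strand (Prkcz). Each is written 5′ to 3′ along its gene, and capitals mark CpG dinucleotides.
Adamts1: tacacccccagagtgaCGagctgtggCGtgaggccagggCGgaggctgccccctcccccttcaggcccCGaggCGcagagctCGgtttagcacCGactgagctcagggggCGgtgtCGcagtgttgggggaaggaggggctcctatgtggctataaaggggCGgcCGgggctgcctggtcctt
Wwtr1: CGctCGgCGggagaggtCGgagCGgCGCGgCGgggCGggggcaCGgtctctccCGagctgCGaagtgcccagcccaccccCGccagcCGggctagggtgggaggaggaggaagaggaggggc
Slc16a9: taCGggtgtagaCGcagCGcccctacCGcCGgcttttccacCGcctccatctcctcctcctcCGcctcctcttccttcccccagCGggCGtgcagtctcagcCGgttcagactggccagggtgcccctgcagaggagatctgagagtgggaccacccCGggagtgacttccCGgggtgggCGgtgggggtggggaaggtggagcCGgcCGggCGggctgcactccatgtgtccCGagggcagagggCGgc
Prkcz: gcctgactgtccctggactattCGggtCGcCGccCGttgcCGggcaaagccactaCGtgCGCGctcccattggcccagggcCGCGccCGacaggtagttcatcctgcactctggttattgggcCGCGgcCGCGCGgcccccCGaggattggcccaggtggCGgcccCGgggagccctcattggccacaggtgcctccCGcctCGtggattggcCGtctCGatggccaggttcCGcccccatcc
The Adamts1 stretch held 11 CpG dinucleotides and 68.3% G or C over 183 bases. The Wwtr1 stretch held 14 CpG dinucleotides at 77.9% G or C over 122 bases. Slc16a9 had 18 CpG dinucleotides in 250 bases and Prkcz had 24 in 243 bases. None of the 12 motifs searched below was found in these 4 stretches.

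The 2305 regions were highest in the LL-MG libraries, somewhat lower in MG and lowest in MDM, with the LL-MDM libraries between microglia and MDM. Levels are in CPM, the count of a region scaled to the library's region total after TMM, a method that equalises the bulk of regions between libraries. The median region had 6.09, 5.88 and 5.57 CPM in LL-MG, 4.99, 3.25 and 3.96 CPM in MG, 0.850, 1.597 and 1.64 CPM in LL-MDM, and 0.484, 0.565 and 0.328 CPM in MDM. The 4 groups did not overlap in this median. As means of the library medians these levels were 5.85 ± 0.265 CPM in LL-MG, 4.07 ± 0.876 CPM in MG, 1.36 ± 0.443 CPM in LL-MDM and 0.459 ± 0.121 CPM in MDM (SD, n = 3 each). In these bulk libraries, fewer cells with an open region and less opening per cell cannot be told apart.

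**Figure D1:**
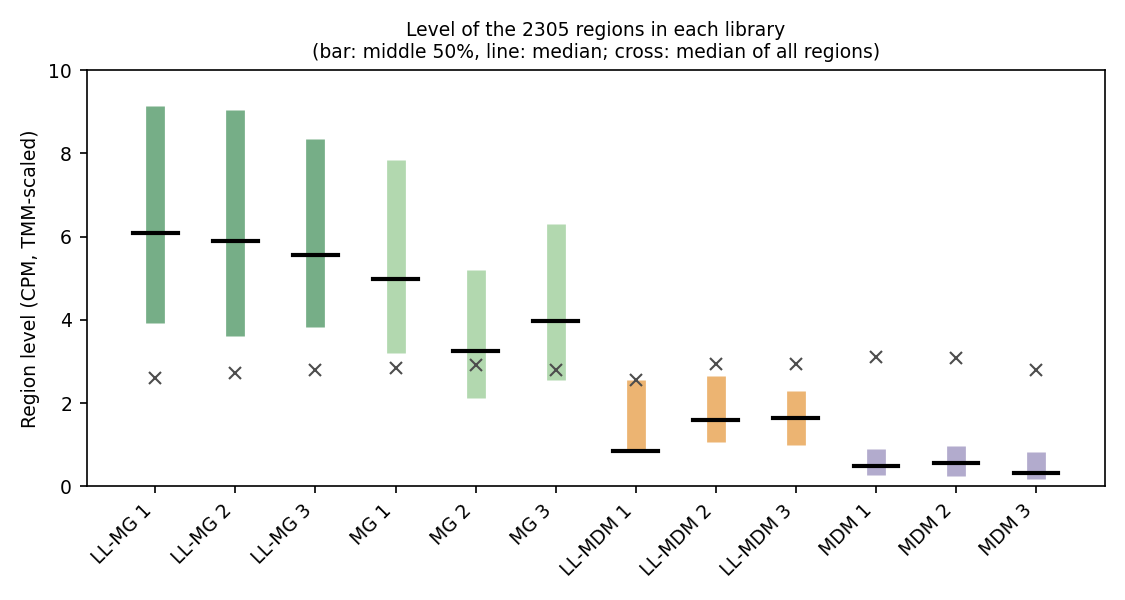
Level of the 2305 regions in each of the 12 libraries (vertical axis, TMM-scaled CPM), with the middle 50% of the regions as a bar, their median as a line and the median of all 117835 regions as a cross. The medians lie between 5.57 and 6.09 CPM in LL-MG and between 3.25 and 4.99 CPM in MG, against 0.85 to 1.64 CPM for LL-MDM and 0.328 to 0.565 CPM for MDM, while the crosses stay between 2.55 and 3.11 CPM.

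The 2305 regions took 1.72%, 1.71% and 1.64% of the region counts in LL-MG and 1.47%, 0.919% and 1.15% in MG. In LL-MDM they took 0.386%, 0.499% and 0.433%, and in MDM 0.171%, 0.186% and 0.147%. The share thus fell in the same order of groups as the median level. Region totals ran from 2150072 to 2764146 in LL-MG, 2753453 to 6872724 in MG, 1162969 to 7390521 in LL-MDM and 6341183 to 18938222 in MDM. The low levels rest on few counts: the median region had 1 count in LL-MDM 1, the shallowest library, where 575 regions had none and where 1 count is worth 0.85 CPM. A count of 0 there allows up to 2.55 CPM (3 counts), and counting error alone is covered by that limit.

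Levels followed the calls for nearly all of the 2305 regions. The mean over the microglia libraries was at least 2-fold that over the LL-MDM and MDM libraries in 2198 regions (95.4%). All 6 microglia libraries lay above all 6 libraries of LL-MDM and MDM in 1567 regions (68.0%), where 5.67% of all regions did so, as the rule itself favours. For 2 regions the mean over LL-MDM and MDM was at or above the microglia mean. One lies in Cd74, which encodes the invariant chain of MHC class II, at chr18:60806693-60806771, with 10.0, 4.53 and 9.74 CPM in LL-MG, 8.20, 6.65 and 5.83 CPM in MG, 5.95, 9.72 and 7.20 CPM in LL-MDM, and 12.2, 13.4 and 15.7 CPM in MDM. Every MDM library was above every other library at this site, although no MDM peak had been merged into it. The other, at chr7:35081228-35081311, had 5.64 ± 3.99 CPM in LL-MDM against 1.70 ± 0.218 CPM in MDM, 2.52 ± 0.666 CPM in LL-MG and 2.86 ± 0.0624 CPM in MG (SD, n = 3 each).

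Among related sets of regions, the 672 that had also been called in LL-MDM had medians of 8.71, 8.60 and 8.00 CPM in LL-MG, 7.13, 4.87 and 5.83 CPM in MG, 2.55, 3.46 and 3.60 CPM in LL-MDM, and 0.76, 0.92 and 0.66 CPM in MDM. They stood above the 2305 regions in all 12 libraries. Regions called in 1 microglia group alone were lower in the other: the 1682 called only in LL-MG had medians of 2.72 to 3.05 CPM in LL-MG and 1.14 to 1.78 CPM in MG. The 6556 called only in MG had medians of 0.87 to 1.04 CPM in LL-MG and 1.43 to 3.41 CPM in MG. These sets show where the calls placed a region and carry no test.

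The 12 regions at microglia identity genes give the group its clearest names. A list of 19 such genes held a region within its span or 5 kb either side for 8 genes: Sall1 and Sall3 with 3 regions each, and P2ry12, Cx3cr1, Fcrls, Csf1r, Bin1 and Trem2 with 1 each. Of 15 genes that mark monocyte-derived macrophages, 0 held one, where 8.39% of the 16300 protein-coding genes with any region did. The rule worked against such genes, as it left out every region called in MDM or LL-MDM. All 6 microglia libraries were above all 6 libraries of LL-MDM and MDM in 7 of the 12 regions. Of the 2305 regions 68.0% were so, and of all regions 5.67%, as the rule itself favours.

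Sall1 encodes a zinc-finger transcription factor that in the brain's macrophages marks microglia. Its region at chr8:89042724-89043350 lay 175 bp from an annotated start. Among those of the 2305 with a gene within 50 kb, it had the highest mean level over the microglia libraries. It had 33.5, 36.7 and 35.5 CPM in LL-MG, 45.6, 26.3 and 30.8 CPM in MG, 3.40, 5.06 and 2.95 CPM in LL-MDM, and 0.414, 0.617 and 0.164 CPM in MDM. The LL-MG libraries lay inside the spread of the MG libraries, and LL-MG over MG gave a log2 fold change of 0.064 (SE 0.19, adjusted p = 0.869, edgeR with Benjamini-Hochberg adjustment). The next region, chr8:89043558-89043696, had 11.8, 24.9 and 16.0 CPM in LL-MG, 13.2, 11.0 and 15.9 CPM in MG, 4.25, 2.26 and 0.982 CPM in LL-MDM, and 0.207, 0.103 and 0.164 CPM in MDM.

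The other identity genes ran at lower levels. The Csf1r region, at the gene of the receptor on which microglia depend for survival, had 18.3, 22.2 and 18.1 CPM in LL-MG, 14.6, 10.7 and 10.7 CPM in MG, 11.1, 8.39 and 11.1 CPM in LL-MDM, and 4.77, 5.34 and 2.95 CPM in MDM. Its LL-MG libraries were all above its MG libraries, and it was the 1 region of these 12 that passed the test between them, where 4.21% of all regions tested were higher in LL-MG (log2 fold change 0.71, SE 0.23, adjusted p = 0.0358, edgeR with Benjamini-Hochberg adjustment). Cx3cr1, the fractalkine receptor gene, had a region with 7.84, 7.70 and 11.1 CPM in LL-MG, 6.06, 4.38 and 5.13 CPM in MG, 5.10, 5.32 and 4.58 CPM in LL-MDM, and 1.31, 1.90 and 1.80 CPM in MDM. There the LL-MDM libraries overlapped those of MG. At P2ry12, the purinergic receptor through which microglia sense ATP and ADP, the region had 6.97, 5.88 and 6.96 CPM in LL-MG, 5.70, 2.27 and 5.13 CPM in MG, 2.55, 0.665 and 1.64 CPM in LL-MDM, and 0.967, 0.771 and 0.328 CPM in MDM.

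**Figure D2:**
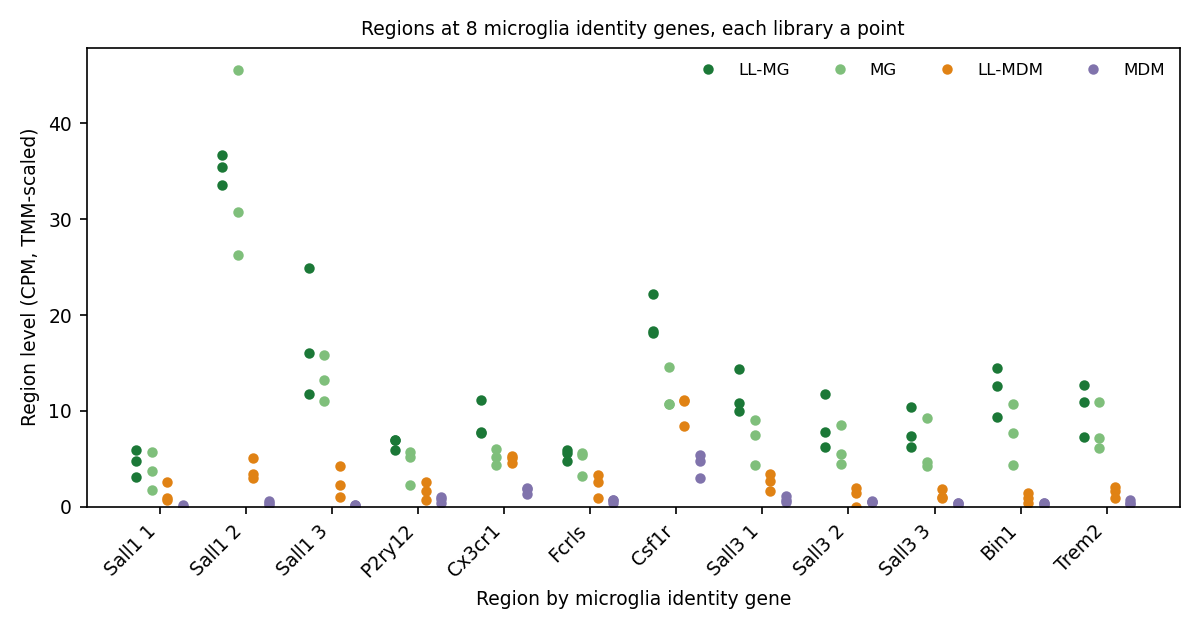
Level of the 12 regions at 8 microglia identity genes (vertical axis, TMM-scaled CPM), with each library as a point coloured by group. The second Sall1 region stands above the others, at 26.3 to 45.6 CPM in the microglia libraries against 0.164 to 5.06 CPM in LL-MDM and MDM.

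Trem2, a receptor for lipids on microglia, had 10.3 ± 2.73 CPM in LL-MG and 8.08 ± 2.53 CPM in MG, with 1.49 ± 0.586 CPM in LL-MDM and 0.419 ± 0.209 CPM in MDM (SD, n = 3 each). The Bin1 region, at the gene of a membrane-curvature adaptor, averaged 12.2 ± 2.57 CPM in LL-MG and 7.59 ± 3.16 CPM in MG, with 0.880 ± 0.569 CPM in LL-MDM and 0.299 ± 0.133 CPM in MDM. LL-MG and MG overlapped at both of these genes. The groups did not overlap, with LL-MG above MG, in 4 of the 12 regions (P2ry12, Cx3cr1, Csf1r and 1 at Sall3), where 9.61% of all regions and 27.9% of the 2305 were so.

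Of 18 macrophage transcription factor genes, 4 held one or more of the regions. Spi1, which encodes PU.1, had a region at chr2:91084333-91084487 with 24.8, 22.6 and 20.2 CPM in LL-MG, 25.7, 15.4 and 12.8 CPM in MG, 18.7, 16.5 and 11.8 CPM in LL-MDM, and 5.18, 5.14 and 6.72 CPM in MDM. The LL-MDM libraries overlapped those of MG at this site, so the absence of an LL-MDM call did not mark a low level. Smad3, a transducer of TGF-beta signals, had 2 regions. The one at chr9:63684368-63684609 had 11.3, 12.2 and 15.0 CPM in LL-MG, 11.4, 7.14 and 11.2 CPM in MG, 0.850, 2.53 and 2.29 CPM in LL-MDM, and 0.553, 0.411 and 0.491 CPM in MDM. The one at chr9:63720799-63721070 was at 26.5 CPM in MG 2, against 8.60 to 14.9 CPM in the other 5 microglia libraries.

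Mef2a, a MADS-box factor active in microglia, had 3 regions, of which that at chr7:67342195-67342352 passed the test. It had 7.40, 7.70 and 7.66 CPM in LL-MG and 3.56, 3.41 and 3.96 CPM in MG, with no overlap (log2 fold change 1.05, SE 0.31, adjusted p = 0.0242, edgeR with Benjamini-Hochberg adjustment). Nr1h3, which encodes the oxysterol receptor LXR-alpha, had a region at 6.10 ± 1.41 CPM in LL-MG and 5.02 ± 1.36 CPM in MG, with 4.96 ± 0.662 CPM in LL-MDM and 3.16 ± 0.494 CPM in MDM (SD, n = 3 each). Of 14 TGF-beta pathway genes only Smad3 held a region, and of 10 purinergic genes only P2ry12.

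Among 20 lipid-associated and disease-associated genes, Trem2, Cd9 and Ctsd held a region (15.0% of the list, where 8.39% of the 16300 protein-coding genes with any region did), and 0 of the 3 regions passed the test between LL-MG and MG. Cd9, a tetraspanin gene, had 17.8, 14.03 and 13.9 CPM in LL-MG and 14.6, 40.9 and 23.5 CPM in MG, so that MG 2 and MG 3 were high and MG 1 was not. Ctsd, the cathepsin D gene, had 18.7, 19.0 and 17.7 CPM in LL-MG and 19.96, 6.01 and 10.7 CPM in MG, where the same pair of libraries was low. No gene of the neuron, glioma and oligodendrocyte progenitor, endothelium, T and NK cell, B cell or border-associated macrophage lists held a region. The oligodendrocyte gene Mbp (myelin basic protein) had 1, the neutrophil gene Csf3r 1 and the dendritic cell list 2 at Itgae.

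Astrocyte genes had 6 of the regions among 58 at these genes (10.3%, beside 9.60% for the microglia identity list and 2.07% at all protein-coding genes), 5 at Slc1a3, which encodes a glutamate transporter, and 1 at Aldh1l1. The 1 at chr15:8638680-8638861 in Slc1a3 rose in LL-MG, with 12.2, 8.60 and 7.66 CPM against 3.21, 4.06 and 4.66 CPM in MG, and did not overlap (log2 fold change 1.197, SE 0.33, adjusted p = 0.0176, edgeR with Benjamini-Hochberg adjustment). The other 5 did not pass. The Mbp region had 14.4, 21.3 and 20.9 CPM in LL-MG, 19.6, 19.0 and 14.5 CPM in MG, 1.70, 4.13 and 2.62 CPM in LL-MDM, and 0.345, 0.719 and 0.491 CPM in MDM. It was thus as high as many microglia identity regions and overlapped between LL-MG and MG.

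The labelled cell types were also compared in markers of whole gene loci. Summed over all regions at 19 microglia identity genes, levels were 1622 to 1693 CPM in LL-MG, 1249 to 1614 CPM in MG, 1211 CPM in each LL-MDM library and 975 to 1066 CPM for MDM. The 15 genes of monocyte-derived macrophages, of which Chil3 held no region, summed to 520 to 552 CPM in LL-MG, 475 to 662 CPM in MG, 813 to 846 CPM for LL-MDM and 871 to 958 CPM for MDM. MG 2 and MG 3 had the lowest microglia sums of the 6 microglia libraries (1249 and 1431 CPM) and the highest sums of the other list (662 and 598 CPM). Their part in the differences between LL-MG and MG was not tested.

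Markers of other cells differed between the groups to different degrees. The astrocyte list, in which Aqp4 and Sox9 held no region, summed to 247 to 263 CPM in LL-MG and 193 to 221 CPM in MG, beside 183 to 195 CPM for LL-MDM and 165 to 179 CPM for MDM. The list of oligodendrocyte progenitors and glioma cells, in which Ptprz1 held none, summed to 125 to 143 CPM in LL-MG and 85.7 to 105 CPM in MG, beside 46.8 to 59.9 CPM for LL-MDM and 48.3 to 58.1 CPM for MDM. LL-MG was above MG without overlap in both sums, and their part in the differences at the 2305 regions was not tested. The neutrophil list, without Ly6g, summed to 102 to 119 CPM in LL-MG and 118 to 159 CPM in MG, beside 129 to 160.0 CPM for LL-MDM and 135 to 146 CPM for MDM, and MG 2 and MG 3 were its 2 highest microglia libraries.

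Of the remaining lists of other cells, that of T and NK cells separated LL-MG from MG. Neuron genes, of which Snap25, Syt1, Gad2 and Stmn2 held no region, summed to 93.2 to 101 CPM in LL-MG and 77 to 93.7 CPM in MG, beside 96.1 to 100.1 CPM for LL-MDM and 103 to 121 CPM for MDM. The oligodendrocyte genes summed to 327 to 337 CPM in LL-MG and 324 to 367 CPM in MG, beside 331 to 356 CPM for LL-MDM and 393 to 408 CPM for MDM. Endothelial genes, of which Cldn5, Ly6c1 and Slco1c1 held none, summed to 288 to 299 CPM in LL-MG and 285 to 304 CPM in MG. T and NK cell genes summed to 124 to 144 CPM in LL-MG and 145 to 186 CPM in MG, where MG 2 was the highest, and B cell genes to 109 to 122 CPM in LL-MG and 122 to 127 CPM in MG. Dendritic cell genes ran highest in MDM, at 586 to 637 CPM in LL-MG and 581 to 658 CPM in MG, beside 547 to 576 CPM for LL-MDM and 727 to 785 CPM for MDM. Border-associated macrophage genes, of which Cd209f held none, summed to 129 to 137 CPM in LL-MG and 117 to 131 CPM in MG.

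The gene lists of macrophage function were high in all groups. The macrophage transcription factors summed to 3563 to 3792 CPM in LL-MG and 3654 to 4122 CPM in MG, beside 3261 to 3439 CPM for LL-MDM and 2948 to 3346 CPM for MDM. The lipid-associated and disease-associated list summed to 1977 to 2131 CPM in LL-MG and 1888 to 2059 CPM in MG, beside 1879.6 to 1958 CPM for LL-MDM and 1375 to 1527 CPM for MDM, so that MDM was the lowest group. The TGF-beta pathway genes summed to 2352 to 2502 CPM in LL-MG and 2431 to 2986 CPM in MG, and the purinergic genes to 1103 to 1211 CPM in LL-MG and 1091 to 1175 CPM in MG.

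The regions gathered at a number of long genes. In all, 1684 of the 2305 (73.1%) lay in or within 5 kb of 1368 protein-coding genes, and 23 of those genes held 5 or more. The 12 with most were Magi1 with 16, Rbfox1 with 11, Kcnma1 with 10, Ldlrad4 with 9, Dlgap2 and Dst with 8 each, Denn2b, Sdk1, Ttc28 and Zfhx3 with 7 each, and Fat3 and Nav3 with 6 each. All 12 are long (179.8 to 1528 kb), and the part of gene length in these counts was not tested. Of all regions at each of these genes, 10% to 68.75% were among the 2305, against 2.07% at all protein-coding genes. Choosing genes by their number of such regions itself favours a high share. Of the 1368 genes, 1274 (93.1%) also held a region called in MDM or LL-MDM, against 98.3% of the 16300 protein-coding genes with any region.

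At Magi1, which encodes a scaffold protein of cell junctions, the 16 regions out of 27 at the gene summed to 140, 138 and 139 CPM in LL-MG, 122, 69.6 and 87.4 CPM in MG, 18.7, 21.8 and 22.6 CPM in LL-MDM, and 6.63, 5.40 and 4.59 CPM in MDM. At Rbfox1, known as a neuronal splicing factor, 11 regions out of 16 summed to 114, 107 and 111 CPM in LL-MG, 71.3, 51.1 and 78.8 CPM in MG, 6.80, 13.6 and 8.51 CPM in LL-MDM, and 1.59, 1.34 and 0.819 CPM in MDM. At Kcnma1, the gene of a calcium-activated potassium channel, 10 regions out of 15 summed to 93.6, 99.1 and 91.2 CPM in LL-MG, 85.2, 46.1 and 62.5 CPM in MG, 9.35, 12.4 and 11.1 CPM in LL-MDM, and 2.21, 1.39 and 0.491 CPM in MDM. All LL-MG libraries were above all MG libraries at these 3 genes, and MG 2 was the lowest microglia library at each.

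**Figure D3:**
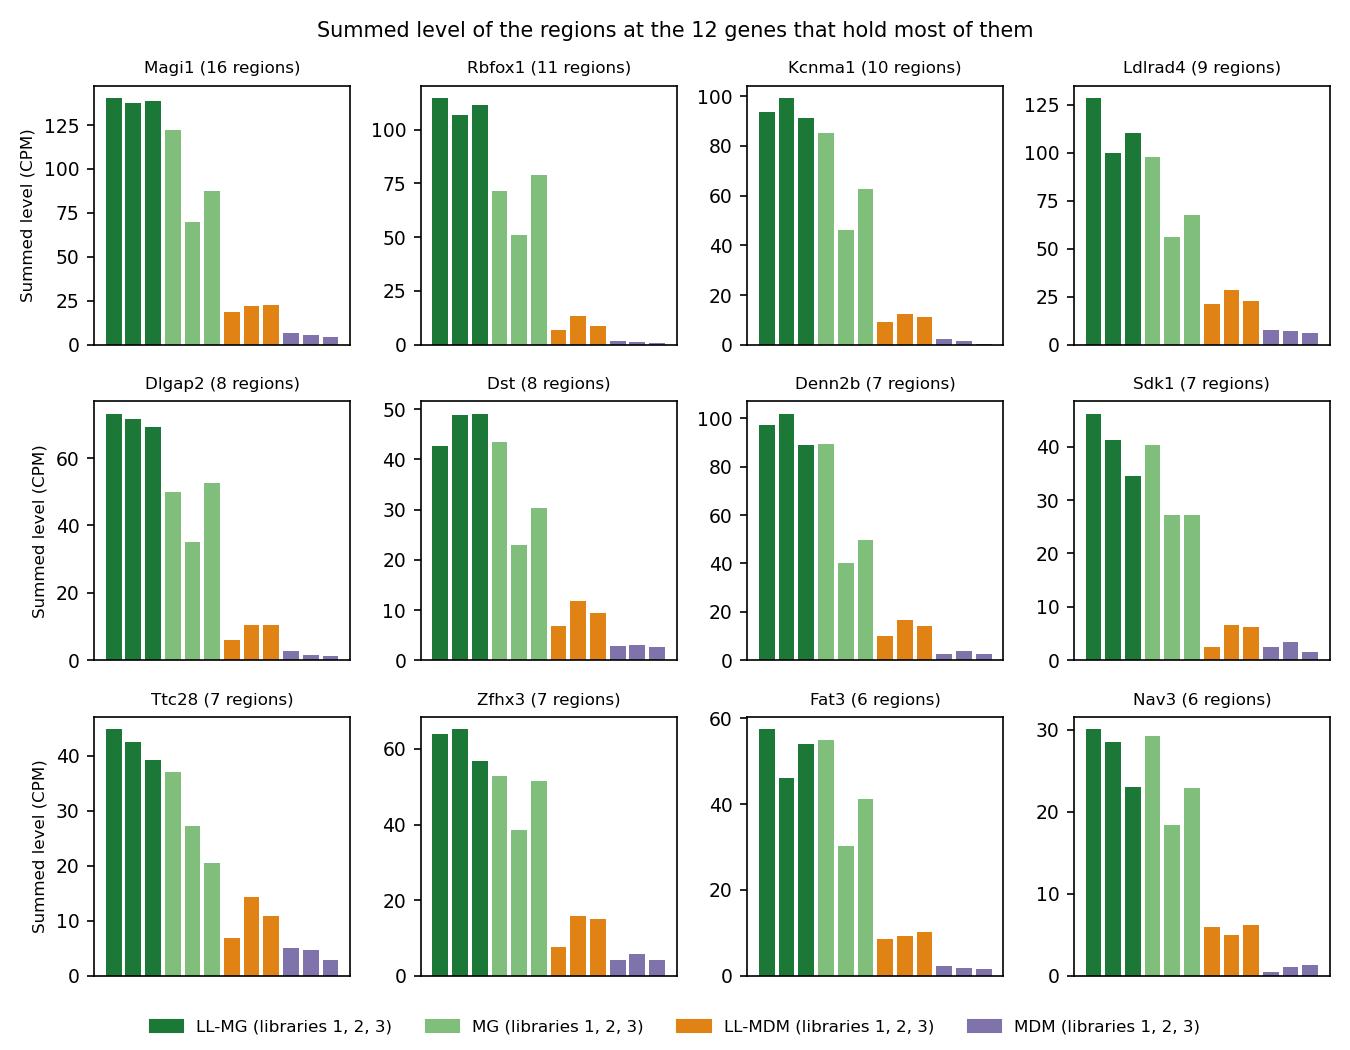
Summed level of the regions at each of the 12 genes that hold most of them (vertical axes, TMM-scaled CPM, each panel with its own scale), with 1 bar per library. The order of the groups is LL-MG, MG, LL-MDM and MDM, and at Magi1 the bars stand at 138 to 140 CPM in LL-MG and 69.6 to 122 CPM in MG, against 4.59 to 22.6 CPM in LL-MDM and MDM.

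Between lipid-laden and non-lipid-laden microglia, 199 of the 2089 regions that passed the filter on low counts were higher in LL-MG and 14 were lower (edgeR quasi-likelihood, Benjamini-Hochberg adjusted p under 0.05 over 77737 regions); 216 were too low to test. Of all regions tested, 4.21% were higher and 8.01% lower. The median log2 fold change was 0.54 over the 2089 regions and 0.0046 over all regions. The 3 LL-MG libraries lay above the 3 MG libraries in 642 of the 2305 (background 9.61%) and below them in 16 (background 11.6%). Because a region needed a call in both groups and the LL-MG libraries were mostly the shallower, the rule could favour regions high in LL-MG, and these shares are not independent of it. Thinning all libraries to the lowest total left 31 higher and 4 lower and DESeq2 called 95 and 9, while the groups of the titles gave 1156 and 0. By the titles, LL-MG holds LL-MG 1, LL-MG 3 and MG 2 of the library names, and MG holds LL-MDM 1, LL-MDM 3 and MDM 2. If the library names are right, that alternative thus sets microglia against monocyte-derived macrophages, the contrast of the rule.

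MG 2 and MG 3 lay farther below the LL-MG libraries than MG 1 did. Of the 2305 regions, 92.4% lay below the LL-MG mean in MG 2, 86.7% in MG 3 and 67.6% in MG 1, where 49.7%, 51.5% and 50.4% of all regions did so in the same libraries. Without MG 1, 594 regions were higher and 43 lower. Without MG 2, 45 were higher and 5 lower, without MG 3 99 and 8, and without any 1 LL-MG library 61 to 82 and 1 to 4. With MG 1 as the only MG library the median log2 fold change was 0.21, and edgeR called 0 regions in either direction, with 120 higher and 13 lower at an unadjusted p under 0.05. The median with all MG libraries was 0.54. A group of 1 library also weakens the test, and the part of MG 2 and MG 3 in the difference was not tested.

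**Figure D4:**
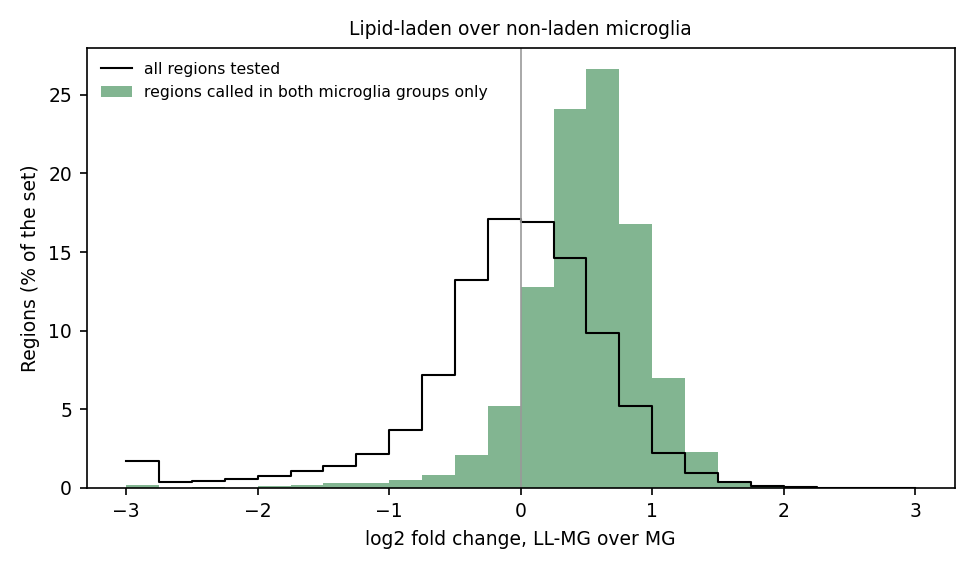
Distribution of the log2 fold change of LL-MG over MG (horizontal axis) as a percentage of each set (vertical axis), for the regions called in both microglia groups only (filled) and for all 77737 regions tested (line). The filled distribution is centred at 0.54 and the line at 0.0046 (medians).

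The 10 named regions that rose in LL-MG are taken in the order of the test. Ldlrad4 and Pmepa1 both encode membrane proteins known to restrain TGF-beta signalling. The Ldlrad4 region (chr18:67973621-67974143, in the gene) had 30.9, 23.5 and 24.4 CPM in LL-MG, 10.7, 7.47 and 10.5 CPM in MG, 1.70, 3.99 and 2.29 CPM in LL-MDM, and 0.0691, 0.154 and 0 CPM in MDM. The groups of microglia did not overlap (log2 fold change 1.48, SE 0.23, adjusted p = 0.000676, edgeR with Benjamini-Hochberg adjustment). The Pmepa1 region (chr2:173270227-173270436, in the gene) had 32.2, 29.0 and 27.5 CPM in LL-MG, 18.2, 9.09 and 13.8 CPM in MG, 5.10, 10.2 and 9.49 CPM in LL-MDM, and 1.66, 1.85 and 1.47 CPM in MDM. It again separated the microglia groups, with a log2 fold change of 1.16 (SE 0.22).

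Osbp2, of the oxysterol-binding protein family, had 15.7, 13.6 and 16.4 CPM in LL-MG and 6.41, 6.01 and 6.29 CPM in MG at chr11:3754669-3754990. Its 3 MG libraries were close to each other, so MG 2 and MG 3 did not stand apart from MG 1 there. Tyk2, a Janus kinase of cytokine receptors, had 18.7, 19.9 and 21.6 CPM in LL-MG, 10.3, 8.12 and 9.56 CPM in MG, 13.6, 8.12 and 7.20 CPM in LL-MDM, and 4.42, 4.32 and 3.93 CPM in MDM. Zdhhc18, a palmitoyltransferase gene, had 19.6, 24.9 and 25.4 CPM in LL-MG and 10.7, 9.09 and 12.6 CPM in MG. The log2 fold changes were 1.28 (SE 0.25) at Osbp2, 1.12 (SE 0.22) at Tyk2 and 1.11 (SE 0.22) at Zdhhc18.

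The other 5 were at Rapgef1 (an exchange factor for Rap1, log2 fold change 1.65), Tmem132a (1.097), Afap1 (an actin filament-binding protein, 1.44), Arnt2 (a bHLH-PAS transcription factor, 1.29) and near Utp11 (1.30). MG 2 was the lowest MG library at all 10 named sites. With MG 1 as the only MG library, the log2 fold changes of the 10 stayed positive, at 0.69 to 1.94 (median 1.04) beside 1.097 to 1.65 (median 1.29), and 7 of them, Osbp2, Zdhhc18 and Rapgef1 among these, moved by at most 1.5 times or grew. None of the 10 then passed the adjusted test, which had 1 library on the MG side. All 10 named regions were also called higher in LL-MDM than in MDM in the same fit. There 15.4% of all regions tested and 60.6% of the 2089 were, and the rule had held both groups down.

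At the 8 named regions that fell in LL-MG, MG 2 was the highest MG library at all 8, and MG 3 was above MG 1 at most of them. With the groups of the titles all 8 turned round, to log2 fold changes of 2.32 to 5.13. That alternative sets libraries named microglia against libraries named MDM or LL-MDM. With MG 1 as the only MG library all 8 stayed negative (-2.38 to -0.48, beside -4.56 to -1.14), and 7 shrank by more than 1.5 times. Lama5, which encodes a laminin chain, had 6.53, 3.62 and 6.61 CPM in LL-MG and 9.62, 68.7 and 37.3 CPM in MG at chr2:180233088-180233679, near the gene. Dusp16, a phosphatase of MAP kinases, had 5.22, 5.88 and 6.61 CPM in LL-MG and 9.98, 68.8 and 37.3 CPM in MG. Nedd9, an adhesion scaffold gene, had 2.18, 0 and 1.74 CPM in LL-MG and 7.13, 55.8 and 28.2 CPM in MG at a site 13454 bp from the gene. MG 1 was far nearer to the LL-MG libraries than to MG 2 at these 3 sites.

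Kif13a, a kinesin motor gene, had 2.61, 3.62 and 1.39 CPM in LL-MG and 5.70, 39.1 and 22.4 CPM in MG. Olfml2b (log2 fold change -1.58, SE 0.34), Gabbr1 (-1.23, SE 0.29), Slc8a1 (-1.40, SE 0.38) and Mctp1 (-1.14, SE 0.32) had smaller differences; Gabbr1 encodes a GABA-B receptor subunit and Slc8a1 a sodium-calcium exchanger. In the LL-MDM and MDM libraries the 8 sites stayed at or below 4.25 CPM. The heat map of these 18 regions shows the split among the MG libraries.

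**Figure D5:**
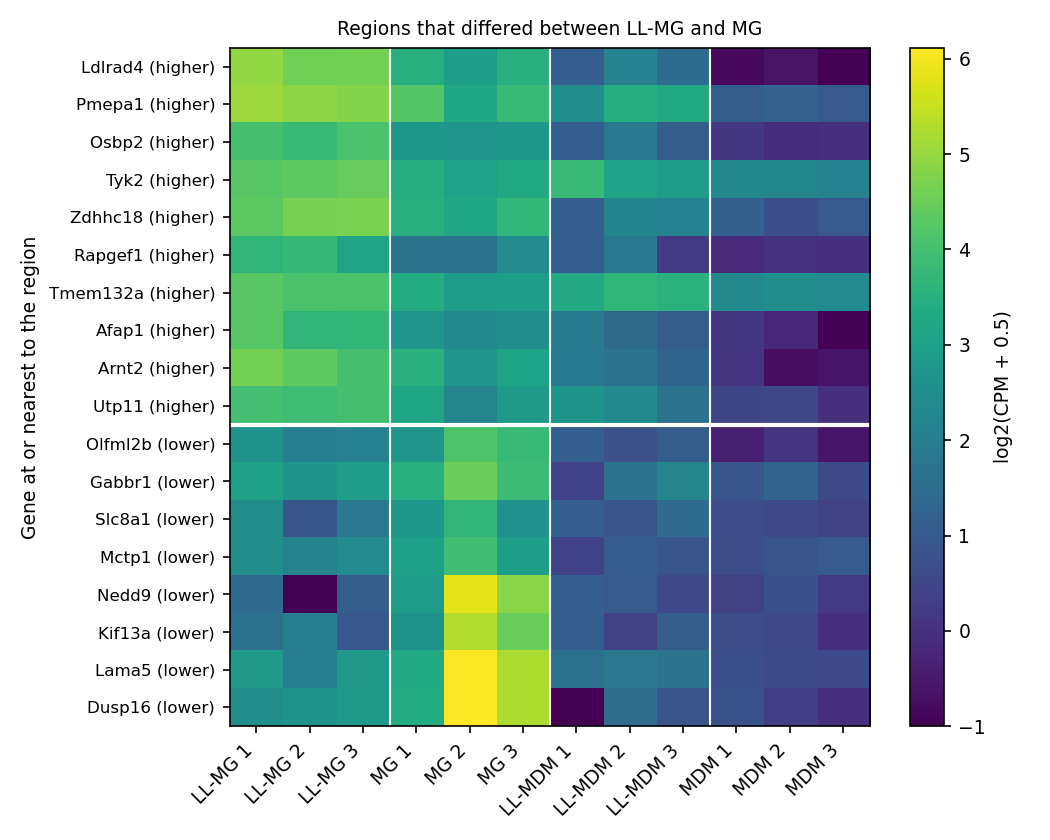
Level of the 18 named regions that differed between LL-MG and MG (rows, 10 higher above 8 lower) in the 12 libraries (columns), coloured by log2(CPM + 0.5). In most of the lower rows MG 2 and MG 3 are brighter than MG 1, as at Dusp16 with 9.98, 68.8 and 37.3 CPM in MG 1, MG 2 and MG 3.

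Counts were also summed per gene over all regions at the gene, whatever their calls. Of the 16 regions at Zdhhc18, for example, 2 had been called in both microglia groups only. The 273 genes compared here each held at least 2 regions called in both microglia groups only. Of these genes, 96 were higher in LL-MG and 6 lower (background 10.3% and 7.98% of 15548 genes tested, edgeR as above). Leaving out any 1 LL-MG library left 30 to 42 higher, leaving out MG 2 or MG 3 left 50 and 43, and leaving out MG 1 gave 186. Among the 12 genes with most regions, 8 were higher and 0 lower. The sums include the regions by which these genes were chosen, in LL-MG 1 for example 37.4 of 247 CPM at Zdhhc18 and 114 of 138 CPM at Rbfox1. As the rule could favour regions high in LL-MG, these gene counts are not independent of it. Zdhhc18 had 247, 270 and 257 CPM in LL-MG and 176, 191 and 197 CPM in MG over 16 regions (log2 fold change 0.61, SE 0.077, adjusted p = 0.000402, edgeR with Benjamini-Hochberg adjustment). Nrp2, a semaphorin and VEGF co-receptor gene, had 236, 240 and 231 CPM in LL-MG and 180, 124 and 160 CPM in MG. The other named genes that were higher were Plekhm2, Tgm2, Eml1, Cdk14, Slc23a4, Afap1, Zfp697 and Slc7a8, and those that were lower were Kif13a, Zwilch, Slco2b1, Slmap, Wbp1l and Slc24a3. With the groups of the titles 5 of these 6 lower genes, all but Zwilch, and Slc23a4 turned round, and with MG 1 as the only MG library Slc24a3 did.

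Lipid-laden monocyte-derived macrophages were above their non-laden counterparts at most of the 2305 regions. In the same fit, 1266 of the 2089 regions were higher in LL-MDM than in MDM and 1, at Cd74, was lower, where 15.4% and 14.1% of all regions were so. The median log2 fold change was 1.53 over the 2089 regions and 0.014 over all. LL-MDM lay above MDM without overlap in 1247 of 2305 (background 17.1%) and below it in 2 (background 22.1%). The rule kept out any region called in either group while the MDM libraries were mostly deeper, so these counts are a description and nothing is read from their share. Without LL-MDM 2, 505 were higher, and after thinning to the lowest total 119 were higher and 0 lower; the Cd74 call was also lost without LL-MDM 1, LL-MDM 3 or MDM 3 and with the groups of the titles.

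The same order held at the regions with the highest microglia levels. The 10 highest, taking only the highest region per nearest gene within 50 kb, lay at or near Sall1, Npnt, Nfic, Cables1, Fbrsl1, Rbfox1, Cdk14, Adamts1, Gxylt1 and Denn2b. All 10 were called higher in LL-MDM, and in 9 of them the lowest LL-MDM library was above the highest MDM library. Of all regions tested 15.4% were called so, and of the 2089 regions 60.6%. Without overlap, LL-MDM was above MDM in 17.1% of all regions and 54.1% of the 2305. The rule held both groups down, so nothing is read from these counts. Nfic, a transcription factor of the nuclear factor I family, had 34.8, 33.0 and 27.1 CPM in LL-MG, 42.1, 22.1 and 32.6 CPM in MG, 8.501, 13.04 and 8.84 CPM in LL-MDM, and 1.24, 1.39 and 1.31 CPM in MDM. Its log2 fold change was 3.02 (SE 0.28) for LL-MDM over MDM and -0.0071 (SE 0.20) for LL-MG over MG. Near Npnt, which encodes the matrix protein nephronectin, levels were 35.3, 35.8 and 35.5 CPM in LL-MG, 41.3, 19.96 and 30.3 CPM in MG, 5.95, 6.79 and 5.24 CPM in LL-MDM, and 0.553, 0.308 and 0.164 CPM in MDM.

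Adamts1, whose upstream sequence is printed above, had 39.2, 28.5 and 30.6 CPM in LL-MG, 28.5, 15.4 and 21.7 CPM in MG, 2.55, 3.59 and 2.62 CPM in LL-MDM, and 0.207, 0.308 and 0 CPM in MDM. The lowest LL-MG library and the highest MG library were both at 28.5 CPM, and the difference did not pass (log2 fold change 0.61, SE 0.21, adjusted p = 0.0550, edgeR with Benjamini-Hochberg adjustment). Of the 10 highest regions, 3 were called higher in LL-MG than in MG (Rbfox1, Gxylt1 and Denn2b), where 4.21% of all regions tested and 9.53% of the 2089 were. MG 2 was the lowest of the 6 microglia libraries at all 10. Denn2b, at the gene of an exchange factor for a Rab GTPase, had 33.1, 36.2 and 28.2 CPM in LL-MG against 26.0, 13.3 and 15.6 CPM in MG.

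In the LL-MDM libraries the marker sums also moved: the microglia identity list was at 1211 CPM in each LL-MDM library, MDM being at 975 to 1066 CPM, and the list of monocyte-derived macrophage genes at 813 to 846 CPM in LL-MDM, MDM being at 871 to 958 CPM. Of the 12 regions at microglia identity genes, 11 were called higher in LL-MDM, all but that at P2ry12, where 15.4% of all regions tested and 60.6% of the 2089 were. The rule held both groups down at these sites, so nothing is read from that count. The part of microglia among the sorted LL-MDM cells in this was not tested.

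The 2 differences between lipid-laden and non-laden cells were themselves compared on the log2 scale. The difference in microglia was smaller than that in monocyte-derived macrophages in 427 of the 2089 regions and larger in 0 (edgeR interaction term, Benjamini-Hochberg adjusted p under 0.05), against 6.33% smaller and 4.56% larger among all regions tested. The median interaction was -1.06 on the log2 scale, and -0.13 over all regions. At an unadjusted p under 0.05 the counts were 4 larger and 860 smaller, and DESeq2 called 0 larger and 256 smaller. The count of smaller ones was 90 without LL-MDM 2, 11 after thinning to the lowest total and 0 with the groups of the titles. The MDM side was held down by the choice of regions, so this too is a description.

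The regions were shorter than all regions by median width and less often near gene starts, and related sets shared these traits in part. Their median width was 161 bp, against 179 bp for all regions and 388 bp for the 32545 called in all 4 groups. It was 94 bp for regions called only in MG, 81 bp for those only in LL-MG and 205 bp for those also called in LL-MDM. In total 1536 (66.6%) lay inside a protein-coding gene span, against 59.6% of all regions. In the related sets, in the same order, 60.5%, 61.0% and 63.8% did. Of the 2210 on chromosomes other than 18, where starts were not used here, 216 (9.77%) lay within 1 kb of an annotated start, against 16.4% of all regions and 30.6% of those called in all 4 groups. The share was 12.5% for regions called only in MG, 9.36% for those only in LL-MG and 6.54% for those also called in LL-MDM. The X chromosome held 19 (0.824%), against 1.93% of all regions. It held 2.06%, 1.13% and 0.595% of the related sets in the same order.

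Regions near a start and those farther away are set side by side for LL-MG and MG. Of 200 tested within 1 kb of a start, 5 were higher in LL-MG (2.50%) and 0 lower, with a median log2 fold change of 0.35. Of 1801 tested farther away, 185 were higher (10.3%) and 14 lower (0.777%), with a median of 0.56. Among all regions tested, 1.42% were higher and 11.9% lower near a start, and 4.97% were higher and 6.95% lower farther away. The share called higher was thus the smaller one near a start in both sets, and no test of this was made. Of the 2305 regions, 388 (16.8%) lay within 10 kb of another.

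The promoter windows that held a region were rich in G and C. A window runs from 250 bases before to 50 bases after a RefSeq start, and 129 windows of 124 genes overlapped 119 of the regions by at least 50 bases. Their median content of G and C was 62.7%, against 52.7% in all 32851 windows and 62.0% in those with a region called in all 4 groups. The median number of CpG dinucleotides was 19, against 7 in all windows and 23 in those with a region called in all 4 groups. Both values are closer to those of windows open in every group than to those of all windows.

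Fixed letter patterns were then searched on both strands of these windows. The PU.1 core AGGAAGT was in 7.75% of the 129 windows and 9.35% of all, and the MEF2 palindrome in 7.75% of the 129 and 3.69% of all. The MAF half-site TGCTGAC was in 6.98% against 4.67%, the E-box TCACGTG in 5.43% against 3.77%, and the E-box CAGCTG in 19.4% against 16.3%. Lower shares than in all windows were found for the AP-1 site TGANTCA (3.10% against 7.81%), the C/EBP site TTGCNNAA (6.20% against 10.8%), the SOX site ACAATGG (2.33% against 3.66%), the SMAD palindrome GTCTAGA (0.775% against 2.19%) and the RUNX site TGTGGTT (4.65% against 5.27%). The IRF repeat was in 3.88% against 3.44%, and the NFI palindrome in 0 of the 129 against 0.0365% of all. Windows with a region called in all 4 groups, which were alike in G and C, gave another order for some patterns. Beside them the direction turned for TCACGTG (6.77%), the SOX site (1.67%) and the RUNX site (3.57%), and held for the other patterns. At most 25 of the 129 windows held any one pattern, so these shares describe the windows and carry no test.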

How the data were processed

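The deposited table holds raw read counts per merged region, 1 column per library, as made by the authors; its coordinates are mm10. Per the submitters' processing notes, the tools were deepTools 3.5.1, Picard 2.12.0, SAMtools 1.10 and BWA 0.7.17-r1188 and the build mm10, with no role or order; the sources used here do not give the peak caller, its thresholds, the insertion shift or duplicate handling. Per the labels' protocols, fragments were amplified in 2 rounds of PCR with size selection, so counts are not independent molecules. All 12 columns were mapped to samples by library name, and 0 were left unmapped.

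The regions and gene lists were chosen with earlier results of these data known. All regions past filterByExpr (77737) were fitted in 4 groups with edgeR 4.0.16 (TMM, robust quasi-likelihood, R 4.3.3), with Benjamini-Hochberg adjustment over all of them and a threshold of 0.05; DESeq2 1.42.0 was an alternative. Loci are sums over regions in a RefSeq protein-coding span (GRCm38.p6, the assembly of mm10) or 5 kb either side. Regions take the name of the nearest gene within 50 kb. The test was checked on simulated data with the same spread in all libraries. Each region there had the same mean in all groups, apart from known changes set in LL-MG. That check therefore does not cover the wider spread of the MG libraries given below. The microglia identity list and that of oligodendrocyte progenitors and glioma cells are each short of 1 gene, left out for reasons that did not depend on its values and not reported here; sums and counts cover the remaining genes.

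Genes named are the 12 with most regions, the members of 16 lists, the 10 highest regions, up to 10 regions per direction for LL-MG against MG and the interaction (a log2 fold change of 1 or more either way and, for LL-MG against MG, no overlap), up to 5 for LL-MDM against MDM, and up to 10 loci per direction with at least 2 regions. Regions named as the highest or by a test were taken once per nearest gene, and those with no gene within 50 kb were left out. The 4 promoter stretches and 2 exceptions to the label were named for their levels. Same-numbered libraries did not deviate together (correlations -0.0645 to 0.0984 over 18 pairs), so the numbers were not taken as pairs. No pair of replicates differed by less than sampling noise (mean chi-square per region 1.12 to 5.82). MG pairs differed most, at 2.60 to 5.82, beside 1.12 to 1.17 in LL-MG and in LL-MDM and 1.64 to 1.92 in MDM. As the groups shared the estimate of spread, standard errors and p-values for LL-MG against MG can understate the spread of MG.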

Additional observations from a re-analysis of the deposited data

Results flagged for a closer look

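For 16 named regions the difference between lipid-laden and non-laden cells itself differed between microglia and monocyte-derived macrophages (edgeR interaction term, Benjamini-Hochberg adjusted p under 0.05). Each value is the log2 fold change of LL-MG over MG minus that of LL-MDM over MDM. The MDM side was held down by the choice of regions, so these values are a description. With the groups of the titles the interaction was called lower in 0 of the regions.

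Among regions that rose in LL-MG, the interaction was -3.25 at Ldlrad4 (SE 0.59), -1.24 at Pmepa1 (SE 0.35) and -1.85 at Arnt2 (SE 0.57). Both differences were positive at these 3, and on the log2 scale that in monocyte-derived macrophages was the larger. In CPM the difference in microglia was the larger at all 3. At Ldlrad4 the means were 26.3 CPM in LL-MG and 9.55 CPM in MG, beside 2.66 CPM in LL-MDM and 0.0744 CPM in MDM. That MDM level rests on very few counts, as 1 count is worth 0.0691 CPM in MDM 1. Among regions that fell in LL-MG, it was -3.33 at Olfml2b (SE 0.69), -2.17 at Gabbr1 (SE 0.49) and -2.10 at Slc8a1 (SE 0.64). The log2 fold changes of LL-MDM over MDM there were 1.75, 0.94 and 0.70, of which the first passed the test.

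Among regions named for LL-MDM over MDM or for the interaction, values were -3.03 at Nfic (SE 0.34), -3.71 near Npnt (SE 0.43), -3.65 near Eps8l3 (SE 0.55), -2.68 at Mapre2 (SE 0.44), -3.04 at Sall1 (SE 0.43), -3.12 at Itpr2 (SE 0.46), -3.93 at Ehd4 (SE 0.57), -2.78 at Fat3 (SE 0.45), -3.09 at Adamts1 (SE 0.52) and -3.36 near Meis3 (SE 0.58). Of these 10 regions, that near Eps8l3 also passed the test between LL-MG and MG, with a log2 fold change of 0.75 (SE 0.22, adjusted p = 0.0234, edgeR with Benjamini-Hochberg adjustment).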

How the results depend on the processing

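RLE scaling, total counts, no filter on low counts and the replicate block left every count and median of the regions within 1.5 times and in the same direction. With the replicate block (library numbers 1 to 4, 5 to 8 and 9 to 12), 171 regions were higher and 18 lower in LL-MG, 1275 higher and 1 lower in LL-MDM, and the interaction was lower in 424. DESeq2 called 95 regions higher and 9 lower in LL-MG, and 256 lower in the interaction. After thinning all libraries to the lowest total, 31 were higher and 4 lower in LL-MG (61 and 2 gene loci), 119 higher and 0 lower in LL-MDM, and 11 lower in the interaction, so depth limits these counts. With MG 1 as the only MG library, assumed to vary like the other groups and weakening the test, 0 regions were called in either direction, the median was 0.21, 1 locus was higher and 0 lower, and the Slc24a3 locus reversed to 0.041.

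Leaving out 1 library at a time gave 45 to 594 regions higher and 1 to 43 lower in LL-MG (median 0.37 to 0.72), 505 to 1424 higher and 0 to 1 lower in LL-MDM (median 1.40 to 1.6003), 0 to 2 higher and 90 to 515 lower in the interaction, and 30 to 186 loci higher and 1 to 12 lower. The lowest count in LL-MDM and in the interaction came without LL-MDM 2.

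With the groups of the titles, 1156 regions were higher and 0 lower in LL-MG (median 2.47), 0 were lower in LL-MDM (median 2.54), 0 were lower in the interaction and 1 locus was lower. These regions reversed: Dusp16 (5.13), Gabbr1 (2.41), Kif13a (3.62), Lama5 (4.11), Mctp1 (2.78), Nedd9 (4.12), Olfml2b (3.26) and Slc8a1 (2.32). So did the loci Kif13a (0.46), Slc23a4 (-0.70), Slc24a3 (1.13), Slco2b1 (1.72), Slmap (0.23) and Wbp1l (0.50). As described above, the titles put libraries named microglia in LL-MG and libraries named MDM or LL-MDM in MG. If the library names are right, these values do not compare lipid-laden with non-laden microglia. Which labels are right was not tested. Genes assigned numbered 1156 by span alone and 2016 with 20 kb either side.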
